A study of Mus musculus with 25 samples.

Results

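Nuclear genes of oxidative phosphorylation were followed through 25 bulk RNA libraries of CD8+ T cells taken from mouse tumours. They were chosen by symbol alone: Ndufa, Ndufb, Ndufc, Ndufs or Ndufv followed by a digit, Sdha to Sdhd, and names beginning with Uqcr, with Cox4 to Cox8 or with Atp5. Of 84 such symbols among the 23366 in the deposited table, 79 had a value of at least 1 in at least 3 of the 25 columns and are the members described here. By name, 36 belong to complex I, 4 to complex II, 8 to complex III, 14 to complex IV and 17 to complex V. The 5 symbols left out were Cox4i2, Cox7b2, Cox8b, Cox8c and Ndufa4l2, none above 1.05 in any column. Just inside the rule stood Cox6a2 with 6 columns at 1 or more, Cox6b2 with 8, Cox7a1 with 14 and Atp5s with 21. The other 75 members were at 1 or more in every column. A name does not always give a protein's place. Atp5sl and Atp5s are now named Dmac2 and Dmac2l by RefSeq and are not counted among the subunits of ATP synthase, and the protein of Ndufa4, counted here with complex I, was later found with complex IV.

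Oxidative phosphorylation is the chain of protein complexes in the inner mitochondrial membrane that burns NADH and succinate to make ATP. Complex I (NADH dehydrogenase) and complex II (succinate dehydrogenase) feed electrons through ubiquinone to complex III, which passes them by way of cytochrome c to complex IV (cytochrome c oxidase), and the proton gradient built on the way drives complex V, the ATP synthase. Most subunits are encoded in the nucleus and are imported, and a small core is encoded in mitochondrial DNA, whose genes are not analysed here. Among CD8+ T cells, memory cells are known for a large respiratory reserve, and exhausted cells inside tumours for poor mitochondrial function.

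The cells came from C57BL/6 mice that carried B16F10 tumours, a transplantable mouse melanoma. There were 3 libraries lacking Prdm1 and Maf (Prdm1/c-Maf cDKO, called cDKO here), 3 lacking Prdm1 (Prdm1 cKO), 3 lacking Maf (c-Maf cKO) and 16 wild-type libraries. A cKO is a conditional knockout, removed only in chosen cells, and cDKO is the double form; the sources used here name neither the line that drives the deletion nor the age of the mice. Blimp-1, the product of Prdm1, is a zinc finger repressor that drives effector differentiation in lymphocytes, and c-Maf, the product of Maf, is a bZIP transcription factor. The design addresses what CD8+ T cells of a tumour express when 1 or both factors are missing. Libraries are called by the code in their column name (cDKO: C2, A1 and A2; Prdm1 cKO: A5, A6 and A9; c-Maf cKO: B10, B11 and C1). In the table the wild-type columns come in 3 runs, 5 next to cDKO (run 3), 7 next to Prdm1 cKO (run 1) and 4 next to c-Maf cKO (run 2), and nothing in the sources says whether these runs are batches. The labels do not say that the libraries came from separate animals, so the p-values below measure the spread between libraries.

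The columns summed to between 389650 and 475956, with 12749 to 15161 symbols above 0. The sequencing depth is unknown, since the values are normalised. Prdm1 averaged 3.05 ± 1.77 in cDKO, 2.93 ± 2.24 in Prdm1 cKO, 17.01 ± 3.0 in c-Maf cKO and 15.5 ± 5.31 in wild type (SD). Each group lacking Prdm1 lay below wild type with p = 0.00103 in an exact two-sided permutation test, the smallest that 969 splits can give. Maf was near 0 everywhere, with means of 0.0700 in cDKO, 0.833 in Prdm1 cKO, 0.310 in c-Maf cKO and 0.462 in wild type, so it does not check the c-Maf label. All 7 CD8 T cell markers with a tested value (Cd8a, Cd8b1, Cd3d, Cd3e, Cd3g, Lck, Cd2) were detected in all 25 libraries, and their summed level ran from 1325 to 2513 in cDKO, 1426 to 1798 in Prdm1 cKO, 2415 to 2565 in c-Maf cKO and 1138 to 3227 in wild type.

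The promoters of 5 members that fell or rose in cDKO are shown first, since 15 members fell there. In addition, 4 factors with a known recognition sequence bear on the design or on this gene family. NRF1 (nuclear respiratory factor 1) and the ETS factor GABP are textbook activators of respiratory chain genes, Blimp-1 is the product of Prdm1, and c-Maf binds Maf recognition elements (MARE). The windows are RefSeq sequences of build GRCm38.p6, the 250 bases before each annotated start; the submitters' processing notes name mm9, a different build, so the coordinates belong to the reference and not to the files. Shown are Ndufs6, Atp5k and Cox6a1, chosen after their values were seen as members that fell in cDKO and hold the NRF1 letters, and Cox7a2l and Ndufa6, the members that rose. All 5 genes lie on the minus strand, at chr13:73328483-73328732, chr5:108434400-108434649, chr5:115348959-115349208, chr17:83514334-83514583 and chr15:82354292-82354541 in the order printed. Each is written 5′ to 3′ in the direction of the gene, ending at the base before the start, and capitals mark a match to a motif on either strand.
Ndufs6: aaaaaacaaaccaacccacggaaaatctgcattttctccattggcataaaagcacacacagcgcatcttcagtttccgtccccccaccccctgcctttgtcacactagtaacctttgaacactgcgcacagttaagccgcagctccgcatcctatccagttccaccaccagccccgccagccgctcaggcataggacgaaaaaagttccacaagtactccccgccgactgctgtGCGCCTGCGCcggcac
Atp5k: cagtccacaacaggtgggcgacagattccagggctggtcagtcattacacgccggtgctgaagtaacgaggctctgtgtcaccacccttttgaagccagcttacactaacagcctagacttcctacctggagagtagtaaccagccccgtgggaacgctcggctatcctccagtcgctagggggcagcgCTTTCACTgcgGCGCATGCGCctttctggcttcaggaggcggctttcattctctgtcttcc
Cox6a1: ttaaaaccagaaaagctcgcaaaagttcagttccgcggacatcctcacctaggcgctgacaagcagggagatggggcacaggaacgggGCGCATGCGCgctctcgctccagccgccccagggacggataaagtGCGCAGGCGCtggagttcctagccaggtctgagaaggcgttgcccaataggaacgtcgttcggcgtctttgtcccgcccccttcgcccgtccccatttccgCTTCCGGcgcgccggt
Cox7a2l: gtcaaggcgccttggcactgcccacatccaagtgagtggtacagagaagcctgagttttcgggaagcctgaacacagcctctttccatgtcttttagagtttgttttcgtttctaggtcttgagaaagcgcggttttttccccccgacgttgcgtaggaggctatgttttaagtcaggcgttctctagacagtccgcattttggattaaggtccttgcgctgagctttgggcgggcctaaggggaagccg
Ndufa6: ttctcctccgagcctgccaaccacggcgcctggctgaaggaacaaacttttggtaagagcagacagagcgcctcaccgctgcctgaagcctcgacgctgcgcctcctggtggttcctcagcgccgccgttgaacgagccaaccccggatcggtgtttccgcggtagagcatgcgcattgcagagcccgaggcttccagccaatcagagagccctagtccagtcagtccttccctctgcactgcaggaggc

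In Ndufs6 the capitals are an NRF1 match, whose first base lies 16 bases before the start. In Atp5k they are a Blimp-1 match followed by an NRF1 match, 61 and 50 bases before the start. Cox6a1 holds 2 NRF1 matches, 162 and 117 bases before the start, and an ETS match 16 bases before it. The windows of Cox7a2l and Ndufa6 hold none of the 4 motifs. Ndufs6, Atp5k and Cox6a1 were not among the most stable falls. Each was lost in the test below without A1, without A2 and with the column run as covariate. Cox5a, Ndufb8 and Atp5j, whose falls passed whichever single library was left out, have windows with none of the 4 motifs. The letters searched on both strands were GCGCA, any base and GCGC for NRF1, CCGGAAG for ETS, AGNGAAAG for Blimp-1, and TGCTGA, any base and TCAGCA for MARE. All 79 members matched a RefSeq symbol, 3 of them through an older name, and 67 had a window. NRF1 letters were in 12 of the 67 (17.9%), against 3.86% of all 27025 windows of that length. ETS letters were in 11 (16.4%), against 7.05%. Blimp-1 letters were in 7 (10.4%), against 7.23%, and MARE letters in 0, against 0.0074%. Among the 14 windows of members that fell in cDKO, 4 held NRF1, 2 held ETS and 1 held Blimp-1. A match describes these letters only and is not a binding site, and the absence of a match says nothing about a factor.

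Most members stood somewhat lower in cDKO than in wild type, and 2 rose. On the log2(value + 1) scale the median member differed by -0.27, a change of -16.9%, against -0.03 for the median of all 12251 genes tested, and after rescaling each column to the CD3 genes the same median was 0.16. Of the 79 members, 15 fell (19%, against 6.85% of all genes tested) and 2 rose (2.53%, against 5.09%), at an adjusted p under 0.05 by limma with Benjamini-Hochberg adjustment over all genes. A negative fold change was found for 70 of 79, against 52.6% of all genes. In bulk samples, fewer cells of a type and less RNA per cell cannot be told apart. The members' values are not independent of each other, since they come from the same libraries.

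The sign of the members' median was negative in 36 of 37 alternatives and positive in 1. With the values rescaled to Cd3d, Cd3e and Cd3g, genes of the T cell receptor complex, 16 of the 79 members had a negative fold change, 0 fell and 3 rose (Cox7a2l, Ndufa6 and Atp5sl), while the median of all genes moved to 0.31. Apart from the pseudocount, this rescaling moves all genes of a column alike, so it carries no information on how the members stand to other genes. The counts of members called after it stand without the share of all genes, and are not read as a result about the members. The CD3 genes themselves had log2 fold changes in cDKO of -0.90 ± 0.29 (SE) for Cd3g, the sole one to pass (limma adjusted p = 0.0399), -0.36 ± 0.22 for Cd3e and -0.03 ± 0.20 for Cd3d. Rescaling to equal column totals without the ribosomal RNA gene Rn45s gave 26 called members, 2 higher and 24 lower, where 4.46% of all genes were called higher and 8.62% lower. The count depended on single libraries. Without A1, 7 members were called, 2 higher and 5 lower, against 2.87% and 3.15% of all genes. Without A2, 5 were called, all 5 lower, against 2.17% of all genes lower.

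**Figure D1:**
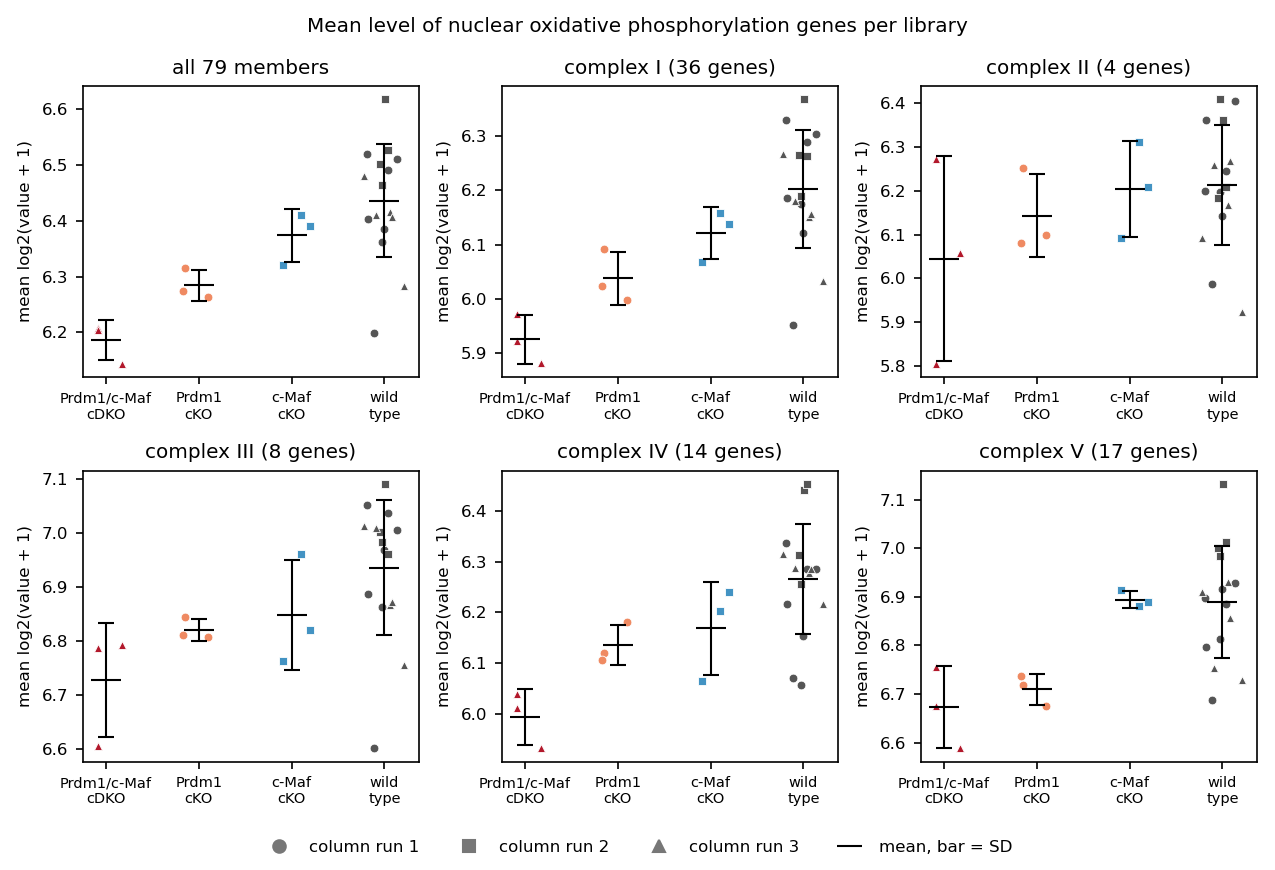
Mean log2(value + 1) of the members in each library, for all 79 and by complex, with 3 libraries per knockout group and 16 wild-type libraries; crosses give mean and SD, and the symbol gives the run of columns in the table. For all members the cDKO libraries lie between 6.14 and 6.21 and the wild-type libraries between 6.20 and 6.62 as deposited. After rescaling to the CD3 genes the median member of cDKO is higher instead, and so is the median of all genes.

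Library by library, the mean log2 value of the 79 members was 6.21 in C2, 6.21 in A1 and 6.14 in A2, against a lowest of 6.20, a median of 6.44 and a highest of 6.62 over the wild-type libraries. The sole wild-type library among them was A4, at 6.20, and the next, B6, was at 6.28. Beside their own run of columns the cDKO libraries did not overlap wild type: they averaged 6.19 ± 0.0362 (SD, n = 3) against 6.40 ± 0.0716 (SD, n = 5, range 6.28 to 6.48). With the run as a covariate, 9 members were called, 2 higher and 7 lower, and the members' median was -0.24. Of all genes 3.58% were called lower in that fit, and the share called higher is not given here. The calls that ended were those of Ndufs6, Ndufb7, Ndufa11, Ndufb9, Uqcrc1, Cox6a1, Atp5f1, Atp5g1 and Atp5k, with limma adjusted p of 0.0544 to 0.274 in that fit, and Cox6a2 was added. Their fold changes there ran from -0.57 for Ndufb7 to -0.28 for Atp5g1, and for Ndufb9 (-0.42) and Ndufa11 (-0.39) they were close to those without the covariate. The added Cox6a2 was at 1 or more in 6 columns, B11 and the 5 wild-type columns of run 3. The members took 1.83% to 1.99% of the summed signal of a cDKO column, against 2.01% to 2.52% of a wild-type column. That sum includes the ribosomal RNA gene Rn45s, which took a mean of 15.68% in cDKO and 12.82% in wild type. The members' share without Rn45s is not given here. The lack of overlap between the ranges is therefore not read as a result about the members.

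**Figure D2:**
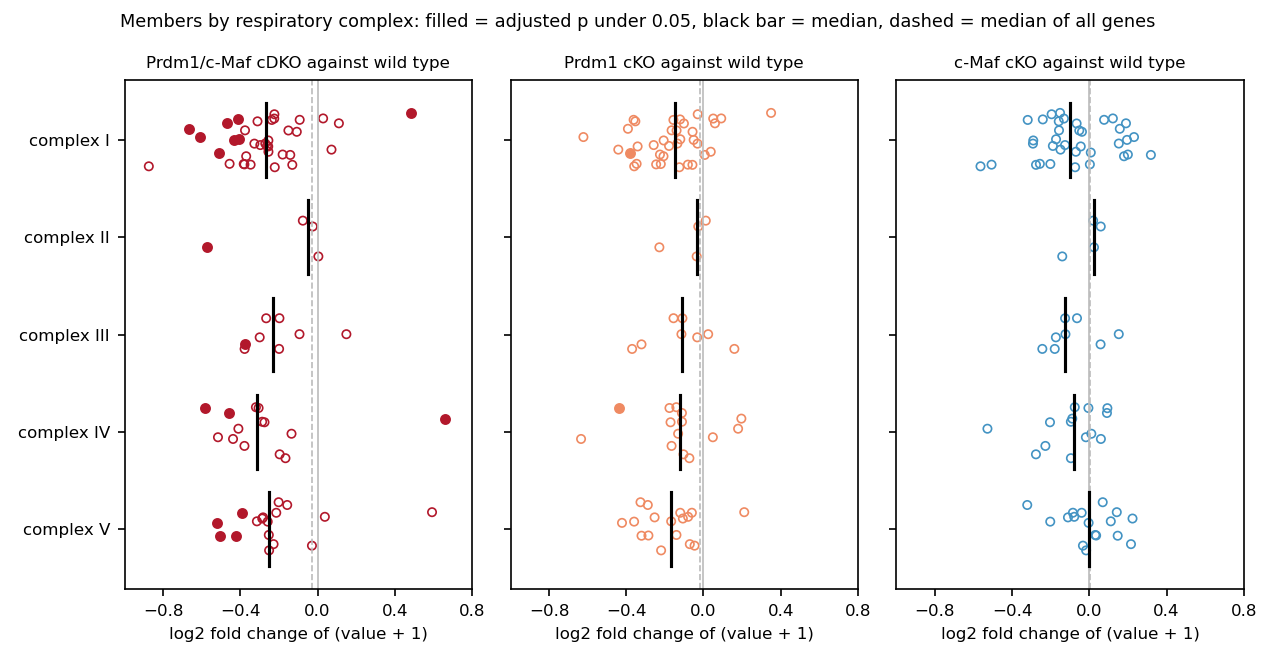
Log2 fold change of each member against wild type in cDKO, Prdm1 cKO and c-Maf cKO (3 libraries each, 16 wild-type), in rows by complex; filled points passed an adjusted p under 0.05, black bars are medians and the dashed line is the median of all 12251 genes. Filled points number 17 for cDKO, 2 for Prdm1 cKO and 0 for c-Maf cKO. The medians are for values as deposited and turn positive for all 5 complexes in cDKO and Prdm1 cKO after rescaling to the CD3 genes. The median of all genes turns positive there as well.

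Complex I is the largest group and takes electrons from NADH. In cDKO 7 of its 36 members fell and 1 rose, 32 had a negative fold change, and the median log2 fold change was -0.27 (0.16 after rescaling to the CD3 genes). The 7 core subunits, which carry the flavin and the iron-sulphur clusters or lie beside them, all had negative fold changes, and 1 of them passed the test. That one was Ndufs8, an iron-sulphur subunit. Its values in C2, A1 and A2 were 85.9, 84.7 and 70.6, against 89.0, 108 and 136 as the lowest, median and highest of wild type. All 3 cDKO libraries lay below all 16 wild-type libraries, which held for 3 of the 79 members and for 2.16% of all genes. The log2 fold change was -0.43 ± 0.12 (SE, limma adjusted p = 0.0226), and the call ended without A1 (adjusted p = 0.0619), without A2 (0.219) and after rescaling to the CD3 genes, where the fold change was -0.00484. The call also ended with the macrophage, erythroid and melanoma marker scores (limma adjusted p = 0.0619) or the letter of the library code as covariates.

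The other core subunits did not pass. Ndufv2, which holds an iron-sulphur cluster of the NADH-oxidising arm, had 51.3, 56.3 and 57.0 in cDKO, against 50.1, 71.2 and 85.2 in wild type, and a log2 fold change of -0.37 ± 0.14 with a limma adjusted p of 0.077. Ndufv1, the flavin-binding subunit, had 46.1, 46.5 and 55.3, against 49.5, 56.0 and 80.5, with -0.27 ± 0.14. Ndufs7, which lies at the ubiquinone site, had -0.22 ± 0.12. For Ndufs3 the log2 fold change was -0.22 ± 0.11 and for Ndufs1, the largest iron-sulphur subunit, -0.24 ± 0.20. In Ndufs1 a single cDKO library stood apart, with 12.8 in C2 beside 31.4 in A1 and 30.3 in A2.

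Accessory subunits surround the core and are needed to assemble or stabilise it. Of these 29 members 6 fell in cDKO and 1 rose. Ndufb8, of the membrane arm, had 93.0, 92.4 and 97.8 in cDKO, against 112, 135 and 160 in wild type. Its 3 cDKO values lay close together and below every wild-type value. It fell by 0.51 ± 0.11 on the log2 scale (limma adjusted p = 0.00278), and the call held when any single library was left out and with the column run as covariate (adjusted p = 0.0332), but not after rescaling to the CD3 genes (-0.09). Ndufs6, a zinc-binding subunit added late in assembly whose promoter is printed above, had 47.5, 32.5 and 25.3, against 29.9, 55.0 and 81.4. It had the most negative log2 fold change of the called members, -0.67 ± 0.21 (limma adjusted p = 0.0349), with overlapping groups. Ndufb7, another membrane arm subunit, had 116, 77.0 and 55.6, against 98.8, 113 and 174. Here the libraries disagreed, since C2 lay above the wild-type median, and the log2 fold change was -0.61 ± 0.18 (limma adjusted p = 0.0262). Leaving out A1 ended the calls of Ndufs6 and Ndufb7 (adjusted p = 0.142 and 0.114), as did leaving out A2 (0.339 and 0.386).

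The remaining accessory subunits that fell were nearer the threshold. Ndufa1, a small membrane subunit, had -0.47 ± 0.13 (limma adjusted p = 0.0213), and the call ended without A1 (0.161) or A2 (0.255). That call also ended with the marker scores (0.0548) or the letter of the library code as covariates, and after rescaling to the CD3 genes (-0.04). Ndufa11 had -0.41 ± 0.13 (0.0387) and lost its call without any 1 of 7 libraries (C2, A1, A7, B5, B7, B9 or B2, adjusted p 0.0506 to 0.297). Ndufb9 had -0.41 ± 0.14 (0.045) and lost it without any 1 of 15 (B10, B11, C1, C2, A1, A2, A3, A7, A8, A10, A12, B7, B9, B2 or B4, 0.0511 to 0.217). The most negative fold change of all members was that of Ndufs5, a subunit of the intermembrane space face, with 15.7, 14.2 and 11.1 in cDKO, against 10.3, 29.8 and 52.9 in wild type. Its values were widely spread in wild type, and it did not pass (-0.87 ± 0.37, limma adjusted p = 0.139), whereas with the marker scores as covariates it did (-1.45, adjusted p = 0.0119). Ndufa4 did not pass either, with 235, 314 and 242 in cDKO, against 173, 283 and 456 in wild type (-0.13 ± 0.20). Ndufa10, Ndufv3 and Ndufb11 had small positive fold changes of 0.11, 0.07 and 0.03 that did not pass.

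Against this trend, Ndufa6 rose in cDKO. It encodes an accessory subunit of the matrix arm that binds the acyl carrier protein. Its values were 121, 126 and 139 in cDKO, against 71.2, 89.9 and 125 in wild type, so that all 3 cDKO libraries lay above the wild-type median and 1, C2, fell below the highest wild-type library. The log2 fold change was 0.48 ± 0.12 (limma adjusted p = 0.0077). It was positive in all 37 alternatives run, from 0.32 to 0.91, and the call ended without A2 (adjusted p = 0.0915) and with the macrophage, erythroid and melanoma marker scores as covariates (0.165).

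Complex II oxidises succinate and is shared with the TCA cycle. Of its 4 members 1 fell in cDKO, and the complex's median was -0.05 (0.38 after rescaling to the CD3 genes). Sdhb, the iron-sulphur subunit, had 94.4, 165 and 118 in C2, A1 and A2, against 150.2, 187 and 237 in wild type. The A1 value lay inside the wild-type range and the other cDKO values below it. Sdhb fell by 0.57 ± 0.14 on the log2 scale (limma adjusted p = 0.00608), and the call ended without C2 (adjusted p = 0.102), without A2 (0.0591) and after rescaling to the CD3 genes (-0.15). The flavin subunit Sdha differed by -0.08 ± 0.16, and the membrane anchors Sdhc and Sdhd by 0.00 ± 0.18 and -0.02 ± 0.14, none of which passed. Beside Sdhb, no gene of this complex had an unadjusted p under 0.05.

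In complex III, which hands electrons from ubiquinol to cytochrome c, 1 of 8 members fell in cDKO, 7 had negative fold changes and the median was -0.23 (0.19 after rescaling to the CD3 genes). Uqcrc1, a core protein related to processing peptidases, had 109, 122 and 139 in cDKO, against 136, 162 and 184 in wild type. A2 lay just inside the wild-type range and C2 and A1 below it. Uqcrc1 fell by 0.38 ± 0.11 on the log2 scale (limma adjusted p = 0.0185), and the call ended without C2 (0.137), without A1 (0.0851) and after rescaling to the CD3 genes (0.05). The call also ended with the column run (limma adjusted p = 0.104) or the letter of the library code as covariates. The Rieske iron-sulphur protein Uqcrfs1 had 94.8, 98.6 and 108, against 89.0, 106 and 124, a difference of -0.09 ± 0.11 that did not pass. Uqcrc2, the other core protein, had -0.20 ± 0.10, and Uqcrb, which binds near the ubiquinone site, -0.38 ± 0.14 with a limma adjusted p of 0.0848. Uqcrh, the acidic hinge protein, was the one with a positive fold change, with 324, 280 and 312 in cDKO, against 220.0, 282 and 311 in wild type (0.15 ± 0.11, not passing).

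Complex IV reduces oxygen. In cDKO 2 of its 14 members fell and 1 rose, and the median was -0.31 (0.12 after rescaling to the CD3 genes). All 10 ubiquitous subunits had negative fold changes. Cox5a, which sits on the matrix face, had 149, 115 and 113 in C2, A1 and A2, against 146, 184 and 236 in wild type. C2 lay just above the lowest wild-type library and the other cDKO values lay below all 16. The log2 fold change was -0.59 ± 0.12, with the lowest adjusted p of the members (limma, 0.00259). The call held when any single library was left out and with the column run (adjusted p = 0.00898) or the marker scores (0.00508) as covariates, and was lost after rescaling to the CD3 genes (-0.16, adjusted p = 0.631). Cox6a1 had 177, 152 and 136, against 150.1, 213 and 300.5, and -0.46 ± 0.15 (limma adjusted p = 0.0403). Its call ended without any 1 of 8 libraries (A1, A2, A7, A8, A10, B5, B8 or B9, adjusted p 0.0509 to 0.28). Cox4i1 had 531, 492 and 500.4 in cDKO, against 501, 566 and 659 in wild type, a difference of -0.17 ± 0.09 that did not pass, and Cox5b differed by -0.20 ± 0.12. Cox6b1 stood at -0.32 ± 0.11 (limma adjusted p = 0.0704) and Cox8a at -0.14 ± 0.11.

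Complex IV has tissue-specific forms of several subunits. The muscle and testis forms Cox6a2, Cox6b2 and Cox7a1 were near 0, with cDKO means of 0.313, 0.207 and 0.623 and wild-type means of 1.05, 0.778 and 1.19. Their differences did not pass as deposited. With the column run as covariate Cox6a2 passed as lower (-1.55, limma adjusted p = 0.0032). It was at 1 or more in 6 columns, B11 and the 5 wild-type columns of run 3 (1.34 to 5.21). Cox6a2 thus met the level rule mainly through the group it is compared with in that fit, and its call there is not used as support. Below the rule, Cox4i2 was listed at 0 in 18 of 25 columns, Cox8b in 21 and Cox8c in 25. The exception to the general trend was Cox7a2l, a relative of the subunit Cox7a2 that is known as a factor joining complexes III and IV into supercomplexes. Its values were 362, 386 and 408 in cDKO, against 185, 244 and 304 in wild type. All 3 cDKO libraries lay above all 16 wild-type libraries, which among the 79 members was seen for Cox7a2l alone and for 3.12% of all genes. The log2 fold change was 0.66 ± 0.16 (limma adjusted p = 0.00562). It was positive in all 37 alternatives run, from 0.60 to 1.09, and the call ended in 1 of them, without A2 (0.62, adjusted p = 0.0601). Cox7a2 itself had 117, 114 and 98.6 in cDKO, against 96.3, 148 and 186 in wild type, with a log2 fold change of -0.38 ± 0.14 that did not pass (limma adjusted p = 0.0822). In Prdm1 cKO the Cox7a2l values were 229 in A5, 417 in A6 and 226 in A9, so that A6 lay above every other library and the other values inside the wild-type range. C57BL/6 mice are known to carry a shortened Cox7a2l protein, and the values here are of RNA only.

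**Figure D3:**
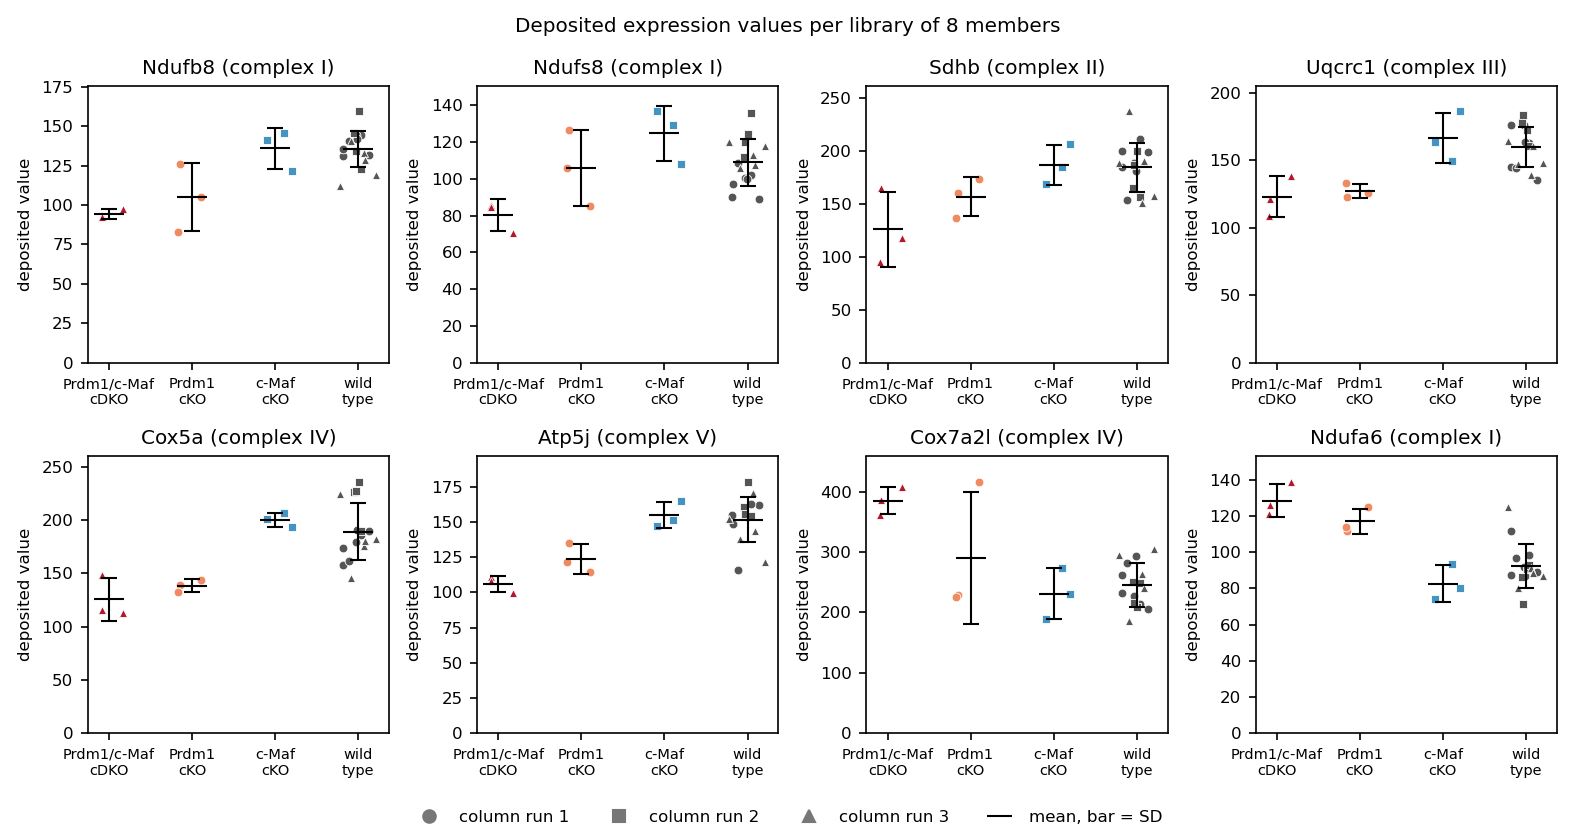
Deposited values of 8 members in every library, with knockout groups left of wild type, mean and SD as bars and the run of columns as symbol. The 3 cDKO libraries lie below all wild-type libraries for Ndufb8, Ndufs8 and Atp5j and above all of them for Cox7a2l. Rescaling to the CD3 genes removes the calls of the 6 genes that fell and keeps those of Cox7a2l and Ndufa6. Apart from the pseudocount, it moves all genes of a column alike and raises the median of all genes. Which calls it removes or keeps is therefore not read as a result about these genes.

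Complex V uses the proton gradient to make ATP. In cDKO 4 of its 17 members fell, 15 had negative fold changes and the median was -0.25 (0.18 after rescaling to the CD3 genes). The 5 genes of the catalytic F1 head and central stalk all had negative fold changes, and 0 passed: Atp5a1 differed by -0.23 ± 0.10, Atp5b by -0.31 ± 0.11 and Atp5c1 by -0.25 ± 0.10. At an unadjusted p under 0.05 there were 4 of these 5. In the peripheral stalk, which holds the head still, 2 of 4 fell. Atp5j had 111, 108 and 99.9 in cDKO, against 116, 154 and 179 in wild type. All 3 cDKO libraries lay below all 16 wild-type libraries, although close to the lowest of them. Atp5j fell by 0.50 ± 0.11 on the log2 scale (limma adjusted p = 0.00298), and the call held when any single library was left out and was lost after rescaling to the CD3 genes (-0.08). Atp5f1 had 126, 123 and 107, against 122, 159 and 185, and -0.42 ± 0.11 (limma adjusted p = 0.0127), a call that ended without A2 (0.144) and after the same rescaling (0.01).

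The rotating ring of complex V is built from 1 small protein that 3 nuclear genes encode, and 1 of them passed the test. Atp5g1 had 109.8, 99.6 and 79.0 in cDKO, against 104, 126 and 155 in wild type, and fell (-0.39 ± 0.12, limma adjusted p = 0.0308). The call ended without A1 (0.0821) or A2 (0.35), and after rescaling to the CD3 genes the value was 0.04. The call also ended with the column run (0.188) or the marker scores (0.187) as covariates, and with plain limma options. Atp5g2 differed by -0.03 ± 0.09 and Atp5g3 by -0.25 ± 0.13, and neither passed; differences between the 3 genes' changes were not tested. Atp5k, a membrane subunit known for its part in joining ATP synthase into dimers and whose promoter is printed above, had 32.8, 28.7 and 20.7, against 24.9, 38.4 and 51.3, and fell (-0.52 ± 0.17, limma adjusted p = 0.0418). That call ended without any 1 of 10 libraries (A1, A2, A7, A8, B5, B7, B8, B9, B1 or B2, adjusted p 0.0502 to 0.398). Atp5sl and Atp5s, which share the name only, had positive fold changes of 0.59 ± 0.24 and 0.04 ± 0.33 that did not pass.

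**Figure D4:**
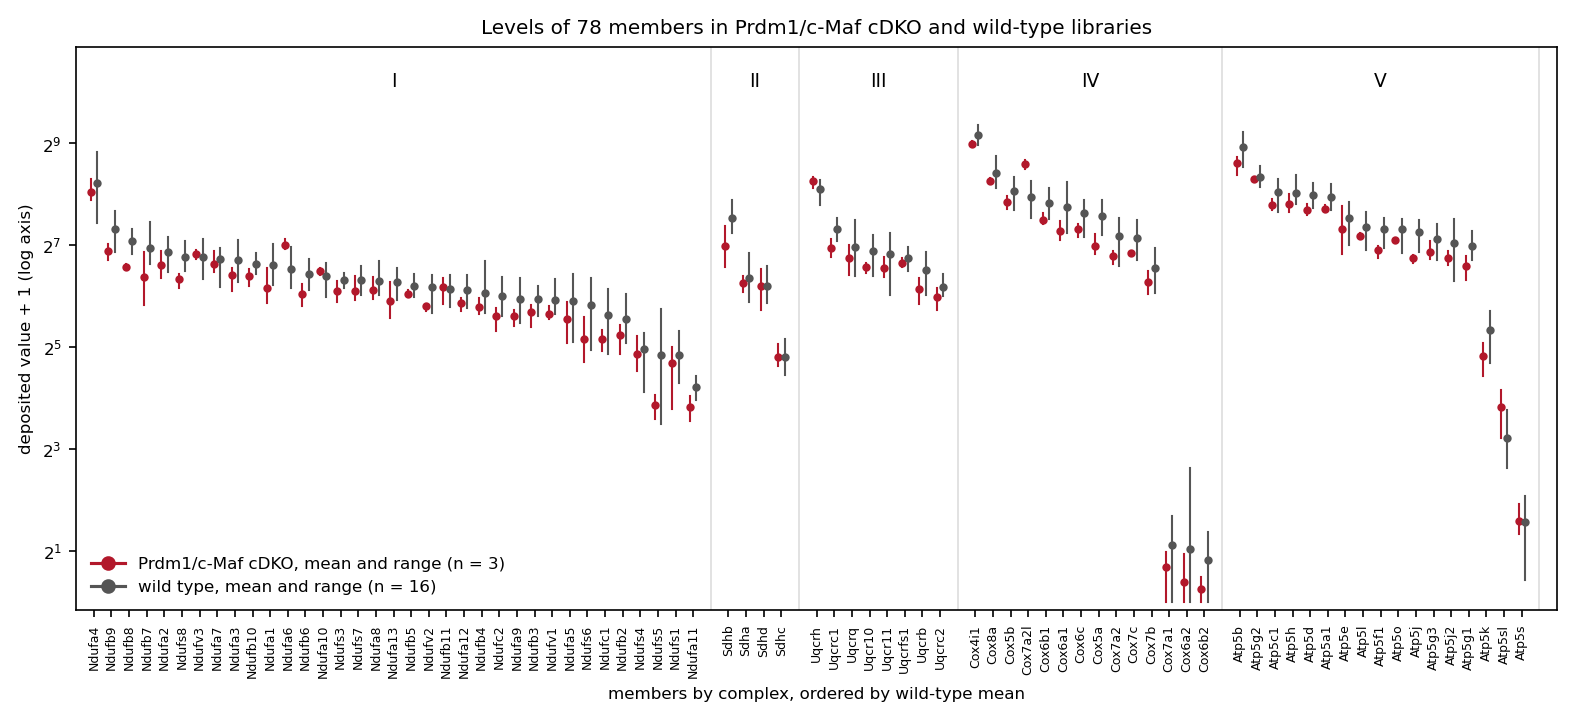
Levels of 78 of the 79 members in cDKO and wild-type libraries, as mean and range of the deposited value plus 1 on a log axis, in columns by complex; the order within a complex is by wild-type mean and does not correct for gene length. Within the 5 complexes the cDKO means lie under the wild-type means for most genes, by a median of -16.9%, and over them for Cox7a2l, Ndufa6 and Atp5sl among others. After rescaling to the CD3 genes most lie over them, and the median of all genes is then positive too.

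Fewer members passed in Prdm1 cKO. Of 79, 2 fell, against 1.87% of all genes, and 0 rose, against 1.58% (3.45% in either direction). A negative fold change was found for 66, against 51.6% of all genes, with a median of -0.14 as deposited and 0.34 after rescaling to the CD3 genes, where 2 of the 79 were negative and the median of all genes was 0.37. The mean log2 value of the members was 6.32, 6.26 and 6.27 in A5, A6 and A9, and beside their own run they averaged 6.28 ± 0.0281 (SD, n = 3) against 6.41 ± 0.113 (SD, n = 7, range 6.20 to 6.52), with overlap through A4 alone. Cox5a had 139, 144 and 133 in Prdm1 cKO, below the wild-type range given above, and fell (-0.44 ± 0.12, limma adjusted p = 0.0479). Ndufb8 had 126, 105 and 83.2, of which 126 lay inside the wild-type range, and fell (-0.38 ± 0.11, limma adjusted p = 0.0496). These calls stand at the edge of the threshold: leaving out any 1 of 19 libraries ended that of Cox5a (all but C2, A3, A4, A7, A10 and B3, adjusted p 0.0509 to 0.21), and any 1 of 17 that of Ndufb8 (all but A5, C2, A3, A4, A7, B3, B4 and B6, 0.0509 to 0.407). With the column run as covariate 0 members were called.

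The members with Prdm1 cKO values below every wild-type library were Cox5a, Ndufb7 and Uqcrc1, 3 of 79, against 0.816% of all genes, and 0 lay above every wild-type library, against 0.824%. Ndufb7 had 88.0, 66.0 and 82.9 in Prdm1 cKO, and a log2 fold change of -0.62 ± 0.18 with a limma adjusted p of 0.051. Uqcrc1 had 123, 126 and 133, and -0.32 ± 0.11 with 0.0779. Ndufa6, which rose in cDKO, had 112, 125 and 114 in Prdm1 cKO, the largest positive fold change among the members there (0.35 ± 0.12), and did not pass (limma adjusted p = 0.0882). Ndufv3, a small subunit of the NADH-oxidising arm, had 80.8, 75.02 and 81.3, against 80.0, 105 and 139 in wild type (-0.44 ± 0.14, limma adjusted p = 0.0696).

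In c-Maf cKO 0 members passed, and limma called 0 of all 12251 genes. At an unadjusted p under 0.05 there were 6 of 79 members and 755 of all 12251 genes. Negative fold changes were found for 50 of 79, against 49.5% of all genes, with a median of -0.07, and of -0.29 after rescaling to the CD3 genes. The most negative fold change was that of Ndufs5, -0.56 ± 0.37. The mean log2 value of the members was 6.41, 6.39 and 6.32 in B10, B11 and C1, inside the range of all wild-type libraries. Beside their own run the 3 libraries averaged 6.37 ± 0.0471 (SD, n = 3) and lay below all 4 wild-type libraries, which averaged 6.53 ± 0.0656 (SD, n = 4, range 6.46 to 6.62). The mean log2 value of the cytosolic ribosomal protein genes did the same, at 9.17 to 9.34 in c-Maf cKO and 9.39 to 9.54 in wild type of that run. The lack of overlap is therefore not read as particular to the members. With the run as covariate the members' median was -0.16 and 0 were called.

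Set against c-Maf cKO, cDKO had 11 lower members, against 5.61% of all genes, and 2 higher, against 3.78% (9.39% in either direction). The median was -0.17 as deposited and 0.47 after rescaling to the CD3 genes, with 0 lower and 3 higher. The share of all genes called after that rescaling is not given here, so its counts are not read as a result about the members. As deposited the lower ones were Ndufs8, Ndufv2, Ndufb7, Ndufb8, Sdhb, Uqcrc1, Cox5a, Atp5a1, Atp5d, Atp5f1 and Atp5j, from -0.84 ± 0.23 for Ndufb7 to -0.43 ± 0.14 for Uqcrc1. The higher ones were Cox7a2l (0.75 ± 0.20) and Ndufa6 (0.64 ± 0.15). Atp5a1, the F1 alpha subunit, had 209, 199 and 220.3 in cDKO, against 305, 266 and 285 in c-Maf cKO, without overlap. Its limma adjusted p was 0.0329. This count fell to 0 without A2, to 5 without C1, to 6 without A1, to 7 without B10 and to 8 without B11, and with the column run as covariate it was 1. The share of all genes called in those fits is not given here, so their counts are not read as a result about the members. The groups stand in different runs. Set against Prdm1 cKO, cDKO had 0 called members by limma, against 0.392% of all genes called in either direction (0.0653% higher, 0.327% lower), and 59 of 79 had a negative fold change with a median of -0.10. Leaving out A6 gave 1 call there, with the share of all genes not given here. Prdm1 cKO against c-Maf cKO gave 0 calls, against 1.53% of all genes (0.588% higher, 0.939% lower), with a median of -0.08 as deposited and 0.61 after rescaling to the CD3 genes. These comparisons share libraries with each other and with those against wild type.

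Whether the cDKO difference departs from the sum of the single knockouts was tested for each member as an interaction. By limma 0 members passed, 7 of 79 had an unadjusted p under 0.05 beside 1436 of all 12251 genes, and 1 gene of all 12251 passed (0.00816%, as lower). The members' median departure was -0.05, from -0.58 for Ndufs8 to 0.66 for Ndufv3; neither passed.

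Genes that work beside the chain were taken from lists of its other subunits, its assembly factors and the pathways that feed it. Their counts stand beside 6.85% of all genes lower and 5.09% higher in cDKO. There 2 of 5 subunits outside the naming rule fell: Ndufab1, the acyl carrier protein of complex I, with 30.7 ± 2.38 in cDKO and 47.3 ± 8.52 in wild type (-0.58 ± 0.17), and Atpif1, the inhibitor of ATP synthase, with 55.4 ± 6.12 and 79.8 ± 13.2 (-0.50 ± 0.16). Of 38 assembly factors 3 fell (7.89%, near the share of all genes) and 0 rose: the copper chaperone Cox17 (-0.90 ± 0.25), Cox19 (-0.71 ± 0.21) and Coa3 (-0.60 ± 0.16). Of 17 TCA cycle genes 3 fell (17.6%), among them Idh3a, a subunit of isocitrate dehydrogenase, with 38.1 ± 7.76 in cDKO and 63.8 ± 8.48 in wild type (-0.73 ± 0.14, limma adjusted p = 0.00111), then fumarase Fh1 (-0.73 ± 0.18) and Dlat (-0.48 ± 0.14). Of 14 fatty acid oxidation genes 4 fell (28.6%), namely Etfa and Etfb, the subunits of the flavoprotein that passes electrons on to the chain, and the dehydrogenases Acadl and Acads. Of 17 regulators of mitochondrial biogenesis 1 fell (5.88%), Tfam (-0.51 ± 0.17, limma adjusted p = 0.0499), and of 6 carriers that exchange ATP, ADP and phosphate 0 did, with 0 that rose. The medians were -0.41, -0.12, -0.09, -0.13, 0.05 and -0.15 in that order of lists, beside -0.03 for all genes, all as deposited. These 6 lists had 0 calls by limma in either single knockout.

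Other transcripts also differed from wild type in the same libraries, and whether they varied jointly with the members was not tested. Of 83 cytosolic ribosomal protein genes, 64 rose and 2 fell in cDKO, with a median of 0.49 (0.92 after rescaling to the CD3 genes), and in Prdm1 cKO 9 rose, with a median of 0.25 (0.74 after rescaling). Their mean log2 value was 9.39 in A5, 9.84 in A6 and 9.40 in A9, against 8.97 to 9.54 in wild type. With the column run or the marker scores as covariates, 0 of these genes were called in Prdm1 cKO. Among erythroid markers, 3 of 5 rose in cDKO, with summed levels of 461 to 4240 in cDKO and 1.38 to 1568 in wild type, and Hbb-b1 at 0 in 5 wild-type libraries and in 0 cDKO libraries. Of 14 macrophage markers 0 passed in cDKO, all 14 having negative fold changes (median -0.98), and their sums ran from 155 to 257 there and from 53.3 to 2500 in wild type; Emr1, which encodes F4/80, was at 0.11 to 0.54 in cDKO and at 0 in 3 wild-type libraries. In Prdm1 cKO, 1 of 14 macrophage markers rose, all 14 had positive fold changes (median 2.65) and an unadjusted p under 0.05, and the sums were 1480 to 4426. The 5 erythroid markers all had positive fold changes there (median 1.57), and 0 passed. Melanoma markers summed to 125 to 1712 in cDKO, 797 to 1595 in Prdm1 cKO and 7.65 to 3876 in wild type, with 0 of 10 called in either comparison. With the macrophage, erythroid and melanoma scores as covariates the members' median in cDKO was -0.30, with 10 lower and 1 higher, against 5.89% and 3.84% of all genes. The calls of Ndufs8, Ndufs6, Ndufa1, Ndufa11, Ndufb9, Ndufa6, Cox6a1, Atp5g1 and Atp5k ended in that fit, with limma adjusted p of 0.0548 to 0.187. Of the 7 CD8 T cell markers, 1 fell in cDKO (Cd3g), and all 7 had negative fold changes, with a median of -0.219. In Prdm1 cKO 0 of the 7 passed and all 7 were negative, with a median of -0.343. The members' medians as deposited were -0.266 in cDKO and -0.135 in Prdm1 cKO. Of the other marker lists in cDKO, 1 of 3 B cell genes rose (Cd79b, with Cd79a at -0.10), as did Pecam1, the 1 fibroblast or endothelial gene tested. The other genes of that list were below the level rule, so Pecam1 alone does not show such cells. Of 8 dendritic cell genes 1 fell (Zbtb46), with all 8 negative, and of 4 neutrophil genes 0 passed. Of 4 genes listed for CD4 T cells 1 fell (Ctla4, with Foxp3 at 0.20). In wild type Ctla4 ran from 33.7 to 138 where Cd4 ran from 0 to 1.84, so its fall is not read as one of CD4 T cells. The part of these transcripts in the result was not tested beyond the covariates named.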

How the data were processed

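Bulk RNA of CD8+ T cells was sequenced by an adapted SMART-Seq 2 protocol, per the labels. The deposited table holds a normalised signal per gene symbol and library that is neither a count nor on a stated scale. The submitters' processing notes name TopHat, RSEM, DESeq and the mouse build mm9, with versions and order not given in the sources used here. Depth is therefore unknown, no count test was run, and levels were not compared between genes because a length correction is not stated. Values were analysed as log2(value + 1), which understates the change of low genes, with limma 3.58.1 in R 4.3.3 (trend and robust options) over the 12251 genes at 1 or more in at least 3 of 25 columns. All 25 libraries entered one fit of 4 groups, and Benjamini-Hochberg adjustment ran over all genes, with a threshold of 0.05. The procedure was tested on simulated data. Fold changes are knockout over wild type unless stated, with standard errors. Alternatives numbered 37 (pseudocount, filter, rescaling, column run, library code letter, marker scores, fit options and leaving out each library; leaving out wild-type libraries was added after seeing the data).

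The members and gene lists were chosen with earlier results of these data known. Genes were named by rule: called members, core subunits, isoform families, extremes of level and change within each complex, members at the edge of the selection, and called genes of the other lists. Ndufa10, Ndufb11, Ndufv3, Uqcrb, Cox6b1 and Atp5d, where outside that rule, were named after their values were seen. The plot of levels leaves out 1 member, which is not reported here. Promoter windows come from RefSeq on GRCm38.p6.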

Additional observations from a re-analysis of the deposited data

Results flagged for a closer look

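Within the wild-type libraries of column run 1, library A4 stood apart from the other 6 in the mean log2 value of the complex III members, at 6.6, with a gap to its nearest neighbour that was large against the range of the group. In all, 18 groups of libraries were examined in this way, and chance marks about 1 in 20. Without A4, 23 members were called in cDKO against wild type in place of 17. The share of all genes called without A4 is not given here, so this count is not read as a result about the members.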

How the results depend on the processing

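Limits: the scale of the values is not stated, each knockout group has 3 libraries in a run of columns of its own, and no value fixes how much RNA each cell held. No paired analysis was possible because the columns carry no replicate numbers. Rescaling to the CD3 genes moved the median of all genes to 0.31 for cDKO, 0.37 for Prdm1 cKO and -0.18 for c-Maf cKO against wild type. It turned the sign of the members' median in cDKO and Prdm1 cKO. The cause was not tested for any value below.

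Where the share of all genes called is not given above, the counts below are not read as a result about the members. For cDKO against wild type the 17 calls became 26 with equal totals, 3 with the CD3 rescaling (all 3 higher), 9 with the column run, 10 with the letter of the library code and 11 with the marker scores as covariates. On leaving out 1 library they became 5 to 23 (23 without A4, 22 without B6, 7 without A1, 5 without A2). The median of -0.27 became 0.16 with the CD3 rescaling and -0.29 to -0.25 on leaving out 1 library. For Prdm1 cKO against wild type the 2 calls, both lower, became 0 with a pseudocount of 0.1, median of ratios, either covariate of position, the marker scores or plain limma options. The count was 1 without a filter, 6 with equal totals and 0 to 3 on leaving out 1 library. It was also 1 with the CD3 rescaling, for a complex I member that was higher, and 1 with only the groups compared. Neither Cox5a nor Ndufb8 passed in either of those settings. The median of -0.14 became 0.34 with the CD3 rescaling. For c-Maf cKO against wild type the count was 0 throughout, and the median of -0.07 became -0.29 with the CD3 rescaling. For cDKO against Prdm1 cKO it was 0 to 1 on leaving out 1 library. For cDKO against c-Maf cKO the 13 calls became 3 with the CD3 rescaling, 1 with the column run, 6 with the code letter, 7 with the marker scores, 2 with only the groups compared and 0 to 15 on leaving out 1 library, and the median of -0.17 became 0.47 with the CD3 rescaling. For Prdm1 cKO against c-Maf cKO the 0 calls became 1 with a minimum value of 10, with the CD3 rescaling or with only the groups compared, 2 with equal totals and 0 to 1 on leaving out 1 library, and the median of -0.08 became 0.61 with the CD3 rescaling and 0.0389 with the column run. Departure from additivity gave 0 throughout. Called members whose sign turned with the CD3 rescaling were Atp5f1 (0.00742), Atp5g1 (0.0373), Ndufb9 (0.013) and Uqcrc1 (0.0518) for cDKO, and Cox5a (0.0484) and Ndufb8 (0.1003) for Prdm1 cKO. Where 2 libraries of a group were left, the spread was pooled over all groups.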
